A study of Mus musculus with 8 samples.

Results

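The genes described here are 6 signal transducers and activators of transcription (Stat2, Stat3, Stat4, Stat5a, Stat5b and Stat6) and 3 suppressors of cytokine signalling (Socs1, Socs2 and Socs3). They were taken by name: every row of the 4 deposited tables whose gene symbol equals one of the 9 was used, which gave 13 rows out of 19353 and 9 of 17553 symbols. A row is 1 RefSeq transcript. Stat5b is split over 2 identifiers and Socs2 over 4, while the other 5 STAT genes, Socs1 and Socs3 have 1 row each.

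Bone marrow cells of C57BL/6 mice were depleted of mature blood cells, which leaves a fraction enriched for haematopoietic stem and progenitor cells. By their labels, all groups share the loss of Ring1a (Ring1-/-) and of Cdkn2a (Cdkn2a-/-), the controls included. The cells were labelled as not transduced (NT) or carried HOXA9, PML-RARa or MLL-AF9, and these 4 contexts were each split into a control library (Ring1b WT, given ethanol) and an OHT library (Ring1b KO, given 4-hydroxytamoxifen), both taken after 72 h. Ring1b, the product of Rnf2, is with Ring1a the ubiquitin ligase of the Polycomb repressive complex PRC1. There is 1 library per context and genotype, 8 in all. In the deposited table of NT the column names read "Empty", and whether these cells received an empty vector is not given in the sources used here. How the Ring1b deletion was driven, and how many mice gave the cells, is not given in the sources used here.

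The libraries held 4226751 to 6998223 reads. Values below are the authors' normalised read counts, and 1 read is worth 0.827 to 1.36 of these units depending on the library. Rnf2 was read at 666 to 990.4 in the control libraries and at 767 to 856 in the OHT libraries, so the whole-transcript value does not check the Ring1b labels, and libraries are named by treatment. Ring1 had reads in all libraries, at 109 to 191 in the controls and 23.8 to 77.8 with OHT. The Cdkn2a rows also had reads in all libraries, NM_001040654 at 18 to 34.5 in the controls and 25.3 to 58.3 with OHT, and NM_009877 at 25.6 to 67.2 and 30.1 to 48.8. Of the progenitor markers, Gata2 was read in every library at 536 or more. Cd34 had 10 to 117 reads, Flt3 8 to 132 and Myb 17 to 141. The rows of Ly6a (1 to 7 reads) and Kit (1 to 29 reads) held few reads. Whether such low rows reflect the level of the gene was not tested. The 10 macrophage and monocyte markers listed for this tissue were all higher with OHT by the test used below. Their summed value was 1140 to 3385 in the controls and 10111 to 18471 with OHT, and none of the 10 was at the lowest entry in every library. Of the other marker lists, 1 progenitor gene fell (Myb, -1.89), 1 eosinophil gene fell (Epx, -4.00), 1 NK cell gene fell (Nkg7), and none of 7 neutrophil genes passed. The B cell, erythroid and stromal and endothelial lists had 1 tested row each, which did not pass, and the T cell list had 0 tested rows. Among the neutrophil genes 4 had an unadjusted limma p under 0.05, and edgeR called 0 and DESeq2 4. Of the 7 neutrophil rows 6 had a negative mean log2 ratio and 1 a positive one, with a median of -0.99. Their sum was lower with OHT in each context. It went from 11164 to 4757 in NT, 7993 to 6273 in HOXA9, 5896 to 2417 in PML-RARa and 9689 to 8606 in MLL-AF9. Summed values over the 8 libraries were 782 to 4775 for the progenitor list (6 of 7 genes matched), 2417 to 11164 for neutrophils (7 of 7) and 1955 to 7327 for eosinophils and mast cells (5 of 5). They were 19.0 to 213 for B cells (3 of 4), 11.8 to 127 for erythroid cells (2 of 4) and 42.4 to 98.0 for stromal and endothelial cells (4 of 4). These are bulk libraries, so more or fewer cells of a type and more or less RNA per cell cannot be told apart.

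Cytokine receptors of this pathway have no kinase of their own and use the attached Janus kinases (JAKs). When a cytokine binds, JAKs phosphorylate STAT proteins, which pair up, enter the nucleus and switch on target genes. Among those targets are the SOCS genes, whose products bind JAKs or receptors and shut the signal down. STAT2 works downstream of type I interferon, STAT3 downstream of IL-6 family cytokines and IL-10, STAT4 downstream of IL-12, the STAT5 proteins downstream of IL-3, GM-CSF, erythropoietin and thrombopoietin, and STAT6 downstream of IL-4 and IL-13.

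The reads behind the members were very unequal. Stat2, Stat4, Stat6 and Socs3 had 40 to 2492 reads per library. The other 9 rows had 1 to 81 reads. Per kilobase of transcript, the mean level over the 8 libraries was 494 for Socs3 (range 179 to 780) and 484 for Stat6 (388 to 597), followed by Stat2 at 222 (142 to 394) and Stat4 at 116 (18.3 to 184). Each of these ranges overlaps the next one in the order. Next came the Socs2 row NM_007706 at 20.5 per kilobase and Socs1 at 16.2, and Stat3 was last at 0.700. Stat2, Stat6 and Socs3 have 1 curated RefSeq transcript each, whereas Stat3, Stat5a and Stat5b have 3, Socs2 has 4 and Socs1 and Stat4 have 2. Over all rows with a known length, the median level was 58.0 per kilobase for genes with 1 curated transcript (9231 rows) and 7.996 for genes with several (7779 rows). Stat4, with 2 curated transcripts, was above both medians. The values given here are those of the rows, and whether the low rows reflect the level of the gene was not tested.

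**Figure D1:**
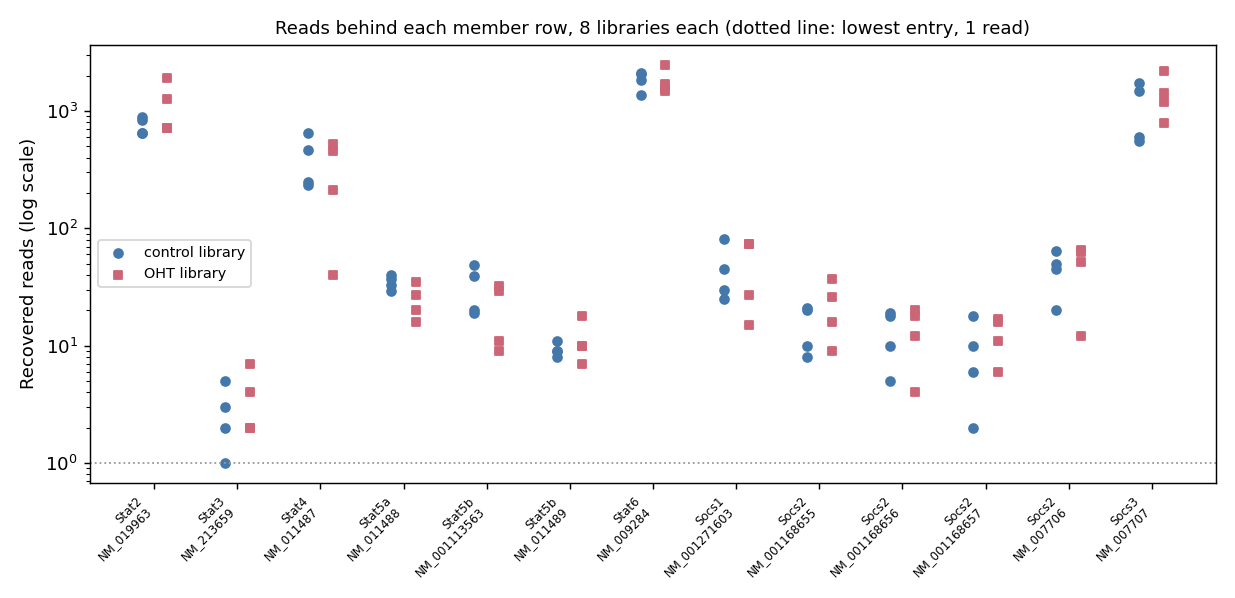
Recovered reads (log axis) of each of the 13 member rows in the 4 control libraries (circles) and the 4 OHT libraries (squares), with 1 point per library. Stat2, Stat4, Stat6 and Socs3 lie between 40 and 2492 reads, and the other rows lie between 1 and 81.

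Across the 4 contexts, none of the members passed the test. This was limma on log2(value + 1) with the context as a block and Benjamini-Hochberg adjustment over the 10599 transcripts whose values averaged 20 or more. Of the 13 rows 8 were tested, 0 were called higher and 0 lower, against 6.4% and 7.48% of all tested transcripts (13.9% in either direction). Of all calls 46.1% were higher by limma and 57.1% by edgeR. At an unadjusted limma p under 0.05 there were 3 rows (Stat2, Stat5b NM_001113563 and Socs3), against 38% of all transcripts. On the recovered reads, edgeR's quasi-likelihood test called Socs3 alone, against 21.1% of transcripts, and DESeq2 called Stat2 and Socs3, against 29.5%. The median of the mean log2 ratios was 0.22 over the 8 rows and -0.03 over all tested transcripts. No context was replicated, and a p here reflects how far the 4 contexts differ.

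Within a context there is 1 library against 1 and no test. A row was counted there if its higher library reached a value of 20 and the pair differed at least 2-fold. In NT 1 of 7 such rows was higher and 0 lower, against 13.8% and 8.76% of all transcripts. In HOXA9 it was 1 higher and 1 lower of 9, against 9.13% and 6.39%. In PML-RARa it was 2 higher and 0 lower of 11, against 9.06% and 13.7%, and in MLL-AF9 2 higher and 1 lower of 8, against 14.6% and 16%. The members behind these counts are Stat2, Stat4, Socs1, Socs3 and 1 row of Socs2. With counts this small, the shares of the members cannot be set apart from those of all transcripts.

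Stat2 (NM_019963), a STAT of type I interferon signalling, was even across the controls. Its controls stood at 735, 698, 622 and 683 (NT, HOXA9, PML-RARa, MLL-AF9, the order used throughout), which is 1.18-fold from lowest to highest, where 33.7% of the tested transcripts spanned at least 2-fold. Its OHT libraries stood at 746, 1733, 856 and 1720.3, a span of 2.32-fold, and 35.7% of the tested transcripts spanned at least 2-fold with OHT. All 4 OHT values lie above all 4 controls, which held for 8.28% of the tested transcripts, but the NT value exceeds the highest control only narrowly.

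The Stat2 value with OHT was 2.48 times the control in HOXA9 (95% interval 2.29 to 2.70) and 2.52 times in MLL-AF9 (2.29 to 2.77). It was 1.38 times in PML-RARa (1.24 to 1.53) and 1.02 times in NT (0.919 to 1.12). These intervals, here and below, are exact binomial ones on the reads of the pair and cover counting error only. The 4 log2 ratios averaged 0.78 ± 0.27 (mean ± SE, as for all such values, 95% interval 0.07 to 1.49, limma adjusted p = 0.11). Without the NT pair it was 1.03 (limma adjusted p = 0.10). The NT ratio lay 1.01 below the mean of the other 3 on the log2 scale (difference -1.01, 95% interval -2.38 to 0.36, limma adjusted p = 0.98), so a difference of NT from the transduced contexts was not established.

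The log2 ratios of Stat2 in the contexts were 0.022, 1.31, 0.46 and 1.33. The macrophage and monocyte marker sums were 2954, 3385, 2684 and 1140 in the controls and 10604, 18471, 10111 and 14237 with OHT. The highest OHT sums are those of HOXA9 and MLL-AF9, the contexts with the highest Stat2. In NT the sum also went up, from 2954 to 10604, where the Stat2 log2 ratio was 0.022. The part of these cells in the Stat2 values was not tested.

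Stretches before the listed transcript starts are printed here because the interferon and cytokine response elements are short letter patterns, and because the members differ in which of them they carry. The RefSeq promoter table (build GRCm38.p6, 300 bases per start) holds 8 of the 9 members, all but Socs2. Searched were the core of the interferon-stimulated response element (ISRE: GAAA, any 2 bases, GAAA) on both strands and the palindrome TTCNNNGAA, the STAT dimer pattern called GAS. The first is found in 3.44% of all 32851 promoters of the table and the second in 8.3%. Capitals mark the matches, and positions count from the table's start, with -1 the base before it. A match is a description of the letters and not a bound site.
Stat2: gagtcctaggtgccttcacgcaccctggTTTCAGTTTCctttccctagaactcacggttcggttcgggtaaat
Stat4: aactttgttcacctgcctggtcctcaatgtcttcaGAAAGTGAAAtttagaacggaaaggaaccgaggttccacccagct
Socs1: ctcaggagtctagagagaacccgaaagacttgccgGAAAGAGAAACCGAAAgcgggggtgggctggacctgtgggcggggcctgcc
Socs3: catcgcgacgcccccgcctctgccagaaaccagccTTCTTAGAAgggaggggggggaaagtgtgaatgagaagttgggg

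The Stat2 stretch (chr10:128270248-128270320, plus strand) has the interferon pattern on the opposite strand at -222 to -213. GENCODE places the start of the transcript matched to NM_019963 78 bases further downstream. The Stat4 stretch (chr1:52008108-52008187, plus strand) precedes the second of 2 starts in the table, 3 bases from the GENCODE start of NM_011487, and has the pattern at -97 to -88. The Socs1 stretch (chr16:10785569-10785654, minus strand) has overlapping matches at -83 to -74 and at -77 to -68. The Socs3 stretch (chr11:117969477-117969555, minus strand) has the STAT dimer pattern at -154 to -146 from a start that lies 180 bases upstream of the GENCODE start of NM_007707. No match of either pattern was found in the windows of Stat3, Stat5a, Stat5b and Stat6. For Stat5a the GENCODE start of NM_011488 lies 305 bases upstream of the nearest table start, outside the window, and for Stat5b that of NM_001113563 lies 143 bases upstream, inside it. The Stat5a windows thus hold none of the bases before that start, and the Stat5b window only part of them. Each window ends 50 bases after the table's start. For Stat2 and Socs3 it thus stops short of the GENCODE start, and the bases just before that start were not searched.

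Stat6 (NM_009284), the STAT of IL-4 and IL-13, had the highest value of the STAT rows and varied least. Its controls were 1725, 1755, 1758 and 1463. With OHT it was 1760.1, 2255, 1766 and 2141. The 4 OHT values lie above the 4 controls, but those of NT and PML-RARa do so by less than counting error. The fold was 1.46 in MLL-AF9 (95% interval 1.36 to 1.57), 1.28 in HOXA9 (1.21 to 1.36), 1.02 in NT (0.956 to 1.09) and 1.005 in PML-RARa (0.938 to 1.08). The mean log2 ratio was 0.24 ± 0.14 (95% interval -0.14 to 0.61, limma adjusted p = 0.28).

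Stat4 (NM_011487), the STAT of IL-12 and best known from T and NK cells, was the member whose contexts went apart most. In the controls it was 539, 389, 238 and 248. With OHT it was 549.6, 191, 549 and 54.6. It was thus lower with OHT in HOXA9 and MLL-AF9, higher in PML-RARa and level in NT, and the OHT libraries span 10.1-fold. A span of at least 3-fold among the OHT libraries was seen in 19.4% of the tested transcripts.

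In MLL-AF9 the Stat4 value with OHT was 0.22 of the control (234 and 40 reads, 95% interval 0.153 to 0.309). In HOXA9 it was 0.49 of the control (0.415 to 0.578), in PML-RARa 2.30 times (1.97 to 2.70) and in NT 1.02 times (0.907 to 1.145). In the authors' deposited table the unadjusted p of Stat4 in MLL-AF9 was 0.042, the lowest of any member in any context. That p compares 1 library with 1, and 4.16% of all transcripts in the authors' deposited table of MLL-AF9 are under 0.05. In the authors' deposited tables of NT, HOXA9 and PML-RARa the shares are 2.91%, 1.82% and 2.32%, with 0 member rows. Over the 4 contexts the mean was -0.49 ± 0.58 (log2 ratio, 95% interval -1.99 to 1.01, limma adjusted p = 0.56), and it was 0.068 without the MLL-AF9 pair and -1.05 without the PML-RARa pair.

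Markers were also listed for the lymphoid cells in which Stat4 is best known. The 4 T cell genes with a row (Cd3d, Cd3e, Cd3g and Cd4) summed to 4.98 to 23.2 in the controls and 4.53 to 13.5 with OHT, and Cd3e had 1 to 2 reads. The 5 NK cell genes summed to 238 to 530.3 in the controls and 43.4 to 154 with OHT, nearly all of it Nkg7. Nkg7 fell in all 4 contexts (-2.13 ± 0.22, limma adjusted p = 0.035). Klrb1c had 1 to 2 reads. Whether lymphoid cells had a part in the Stat4 values was not tested.

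**Figure D2:**
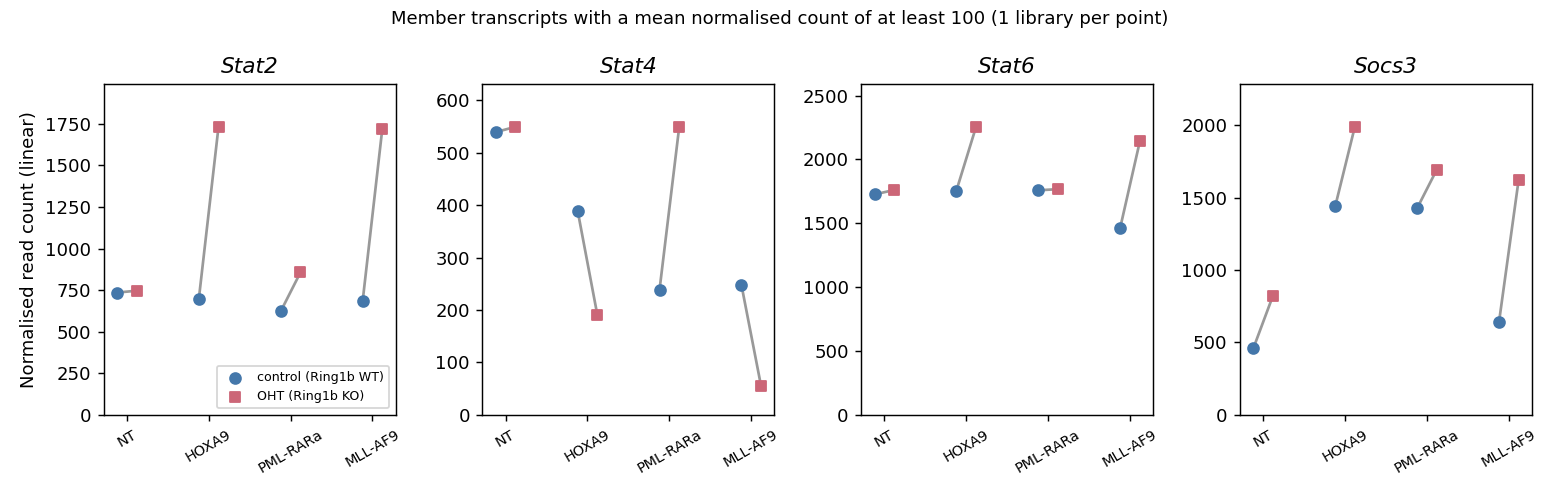
Normalised read counts (linear axes from 0) of Stat2, Stat4, Stat6 and Socs3 in the 4 contexts, with 1 library per point, circles for control and squares for OHT. Stat2 is near 700 in all controls and above 1700 with OHT in HOXA9 and MLL-AF9, and Stat4 goes in opposite directions in PML-RARa and MLL-AF9.

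Stat5a and Stat5b encode the near-identical STAT5 proteins that carry survival signals of myeloid and erythroid cytokines, and they are neighbours on chromosome 11, where Stat3 follows. Whether reads were split between such copies, which would make their values uncertain, was not tested. Stat5a (NM_011488) was 33.1, 27.4, 35.4 and 30.7 in the controls and 36.4, 18.1, 32.1 and 21.8 with OHT. Its mean log2 ratio was -0.26 ± 0.16 (95% interval -0.68 to 0.16, limma adjusted p = 0.29). It rests on 16 to 40 reads, and the counting interval of the fold includes 1 in each context.

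The Stat5b rows differed from each other. NM_001113563 was 15.7, 40.7, 37.3 and 21.2 in the controls and 11.4, 26.2, 38.1 and 12.3 with OHT, and its log2 ratio averaged -0.44 ± 0.17 (limma adjusted p = 0.13). NM_011489 had 7 to 18 reads, too few for the test, and was higher with OHT in 4 of 4 contexts. Its controls were 7.45 to 9.13 and its OHT values 9.55 to 16.3. Summed over both identifiers, Stat5b was 23.2, 49.8, 45.9 and 29.7 in the controls and 21.8, 42.5, 49.99 and 21.8 with OHT, and the log2 ratio averaged -0.15 ± 0.13 (95% interval -0.50 to 0.19, limma adjusted p = 0.44). The sign of a row of Stat5b thus depends on the identifier, and each counting interval of the fold, of the rows and of the sum, includes 1.

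Stat3 (NM_213659) had 1 to 7 reads per library, at values of 0.957 to 4.14 in the controls and 2.38 to 6.33 with OHT. A single read carries a 95% Poisson interval of 0.0253 to 5.57 reads, and 7 reads one of 2.81 to 14.4. The fold was 2.54 in HOXA9 with an interval of 0.581 to 15.2, and in PML-RARa the interval ran from 0.13 to 147. No change of Stat3 was detectable with so few reads on its row.

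Socs3 (NM_007707) is the feedback inhibitor that STAT3 induces and that blocks gp130-type receptors. It had the widest range among the controls of the 4 members with ample reads, at 458, 1439.6, 1427 and 637. This is 3.15-fold from lowest to highest, and 21.5% of the tested transcripts ranged at least 3-fold over the controls. With OHT it was 822, 1991, 1694 and 1622. Within each context the OHT value was the higher one, while the OHT value of NT stayed below the controls of HOXA9 and PML-RARa, so the groups overlap.

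For Socs3 the fold was 2.54 in MLL-AF9 (95% interval 2.31 to 2.81), 1.80 in NT (1.61 to 2.01), 1.38 in HOXA9 (1.30 to 1.47) and 1.19 in PML-RARa (1.10 to 1.28). The 2 contexts with the lowest controls had the largest folds. Its log2 ratio averaged 0.73 ± 0.21 (95% interval 0.17 to 1.28), and the limma adjusted p of 0.080 missed the threshold. It passed with a variance trend in limma (adjusted p = 0.046), in edgeR on the recovered reads (0.81, adjusted p = 0.043) and in DESeq2 (0.79, adjusted p = 0.0040). Stat2, Stat6 and Socs3 were the 3 tested rows that were higher with OHT in all 4 contexts, against 22.9% of all tested transcripts.

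Socs3 reached 0.862 reads per base of transcript and Stat6 0.660. Only 1 of 18431 transcripts with a known length exceeds 2 reads per base in any library and 2040 exceed 0.5. Whether the highest values are compressed, and their ratios understated, was not tested. Stat2 stayed at or below 0.436.

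Socs1 (NM_001271603), which inhibits JAK kinases directly and restrains interferon signalling, had 15 to 81 reads. Its controls were 37.2, 24.9, 77.5 and 26.5, and its OHT values 76.9, 24.4, 88.1 and 20.5. NT was the context in which it was at least 2-fold apart (2.07 times, 95% interval 1.41 to 3.06, 45 and 74 reads). In the transduced contexts the counting interval of the fold included 1. Averaged over contexts, its log2 ratio was 0.21 ± 0.25 (95% interval -0.45 to 0.86, limma adjusted p = 0.58), and without the NT pair it was -0.067.

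The NT ratio of Socs1 was 1.09 above the mean of the other 3 contexts on the log2 scale (95% interval 0.11 to 2.08, unadjusted p = 0.037 by limma, limma adjusted p = 0.88). That was the 1 member row of 8 with an unadjusted limma p under 0.05 in this comparison, against 5.41% of all transcripts. After limma's adjustment 0 of 10599 transcripts passed (0%), and 573 had an unadjusted p under 0.05. edgeR and DESeq2 were not run on this comparison.

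Socs2, the inhibitor that acts on growth hormone and STAT5 signals, is spread over 4 identifiers of 1 locus on chromosome 10, and how reads were shared among them is not given in the sources used here. Its main row, NM_007706, was 37.2, 53.1, 47.8 and 21.2 in the controls and 54.0, 58.8, 75.0 and 16.4 with OHT. That row's log2 ratio averaged 0.24 ± 0.20 (limma adjusted p = 0.43). The rows NM_001168655, NM_001168656 and NM_001168657 had 2 to 37 reads and were not tested. NM_001168657 was at least 2-fold higher with OHT in PML-RARa, from 10 to 17 reads, with a 95% interval of 0.914 to 5.17.

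Summed over the 4 identifiers, Socs2 was 58.7, 101, 93.8 and 37.1 in the controls. With OHT the sums were 94.5, 123, 150.0 and 42.3. The sum was higher with OHT in 4 of 4 contexts, by 0.45 ± 0.14 on the log2 scale (95% interval 0.09 to 0.82, limma adjusted p = 0.089 in a fit over summed symbols), where the main row alone was lower in MLL-AF9. The fold of the sum was 1.61 in NT (95% interval 1.17 to 2.23) and 1.60 in PML-RARa (1.22 to 2.10), and the intervals of HOXA9 and MLL-AF9 included 1. All of these intervals take the reads of the 4 identifiers as separate reads. They are too narrow if a read was counted under more than 1 identifier.

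**Figure D3:**
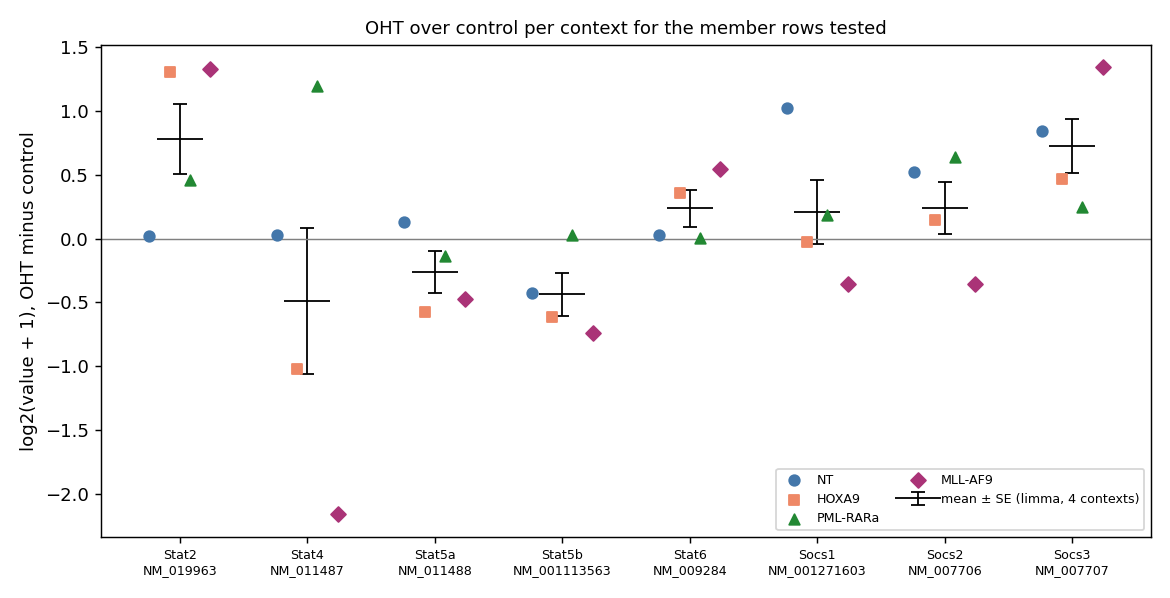
Difference of log2(value + 1), OHT minus control, in each context (coloured symbols) for the 8 tested member rows, with the limma mean and its SE over the 4 contexts as a black bar. Stat2, Stat6 and Socs3 are above 0 in all 4 contexts, and Stat4 runs from -2.16 in MLL-AF9 to 1.20 in PML-RARa.

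The other genes of the pathway were taken from lists written down with the members. The limma calls of the pathway genes named below ended when any 1 of the 4 pairs was left out. limma then called 26 transcripts in all without NT and 0 without any other pair. The counts below can be read against all tested transcripts, of which limma called 6.4% higher and 7.48% lower, edgeR 21.1% and DESeq2 29.5%. Of the 4 JAK kinase genes, all had a row and 3 of 5 rows were tested. Jak1, the kinase of interferon and gp130 receptors, rose (1 higher, 0 lower). Its controls were 2259, 2048, 2062 and 1775 and its OHT values 2877, 2948, 3237 and 2854, so all OHT values lie above all controls. The rise was 0.55 ± 0.12 (limma adjusted p = 0.046), and without the filter on low values the call ended (limma adjusted p = 0.096). The other tested rows did not pass. Jak3 NM_001190830 was lower with OHT in 4 of 4 contexts (-0.60 ± 0.20, limma adjusted p = 0.095). Jak2 had a mean of 0.25 ± 0.18 (limma adjusted p = 0.37). The list median was 0.25.

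Among other negative regulators, 18 of 19 genes had a row and 16 of 19 rows were tested, of which 1 rose and 0 fell. That gene was Usp18, which blocks the interferon receptor (4.98 ± 0.82, limma adjusted p = 0.037). The list median was 0.04. The rest of the SOCS family was named for completeness, after the values were seen. Cish, the STAT5-induced member of the SOCS family, was higher with OHT in 4 of 4 contexts without passing (0.41 ± 0.15, limma adjusted p = 0.12), and so was Socs5 (0.71 ± 0.18, limma adjusted p = 0.062). Socs6 was also higher in 4 of 4 contexts (0.28 ± 0.13, limma adjusted p = 0.19). A ratio above 0 in all 4 contexts was seen in 22.9% of all tested transcripts. Socs4 (-0.24 ± 0.15) and Socs7 (-0.13 ± 0.13) had negative means.

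Receptor genes of the pathway included 6 that rose and 0 that fell, among 25 tested rows of 30 matched genes (31 listed), against 6.4% and 7.48% of all transcripts, and the list median was 0.64. On the recovered reads edgeR called 10 of the 25 (21.1% of all transcripts) and DESeq2 14 (29.5%). Among these 6, the means were largest for Il21r (1.35 ± 0.30, limma adjusted p = 0.04997), Il10ra (1.17 ± 0.21), Il12rb2 (1.10 ± 0.13) and the common gamma chain Il2rg (0.89 ± 0.18). Il4ra, the IL-4 receptor chain that activates STAT6, also rose (0.64 ± 0.12), with controls of 3288, 3029, 4001 and 2465 and OHT values of 5828, 5000.5, 6146 and 3229. Il12rb2, the IL-12 receptor chain that recruits STAT4, was higher with OHT in 4 of 4 contexts. Stat4 was lower with OHT in HOXA9 and MLL-AF9, higher in PML-RARa and level in NT. With no filter on low values the Il12rb2 call held and the other 5 ended.

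Ligand genes of the pathway gave 0 calls among 8 tested rows of 20 matched genes (22 listed), with 1 row at an unadjusted limma p under 0.05 and a median of 0.41. On the recovered reads edgeR and DESeq2 each called 1 of the 8.

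Target genes were described list by list. Of the STAT3 targets 1 of 9 rose (Il4ra) and 1 fell, the transcription factor gene Cebpd (-0.95 ± 0.19, limma adjusted p = 0.046), with a median of 0.31. Of 8 tested STAT5 targets the anti-apoptotic Bcl2l1 rose (0.89 ± 0.12, limma adjusted p = 0.035) and none fell, with a median of 0.42. Of 5 tested STAT6 targets 2 rose and 0 fell, the mannose receptor Mrc1 (3.64 ± 0.67, limma adjusted p = 0.040) and the chemokine Ccl22 (3.40 ± 0.28, limma adjusted p = 0.035), with a median of 2.09. Mrc1 is also one of the 10 macrophage markers, and several of the targets are expressed by macrophages. The part of these cells in the list values was not tested. Without the filter on low values the calls of Cebpd, Bcl2l1, Mrc1 and Usp18 ended, and that of Ccl22 held. The Ccl22 controls were 3.31, 0.830, 12.4 and 1.06, and its OHT values 31.2, 15.4, 118 and 42.3. Its controls of HOXA9 and MLL-AF9 were at the lowest entry, 1 read. The size of its change thus depends on the number added before the log. The limma mean was 1.90 with 10 added and 3.92 with 0.1.

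**Figure D4:**
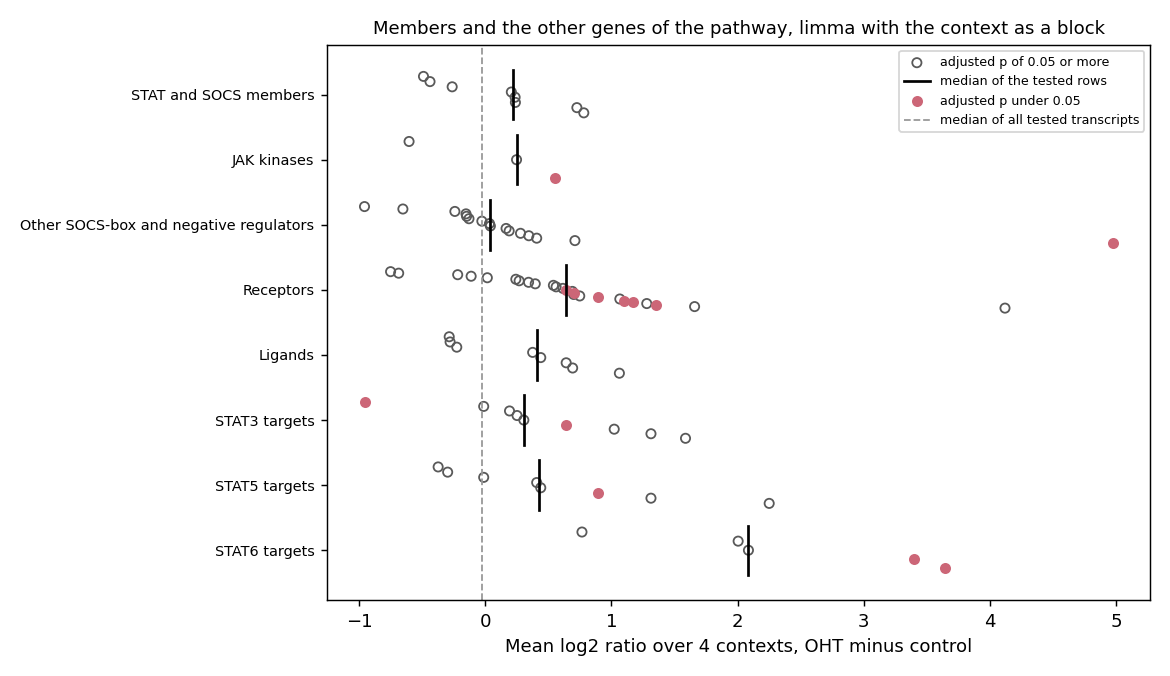
Mean log2 ratio over the 4 contexts (OHT minus control) of each tested row of the members and of the pathway lists, with filled points for a limma adjusted p under 0.05 and a black bar at each list's median. No member is filled, and the STAT6 targets have the highest list median of those drawn, 2.09.

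For each member row with a mean value of at least 50, the 3 transcripts nearest in pattern over the 8 libraries were found by the root mean squared difference of centred log2 values. Nearest to Stat2 were C030046E11Rik (0.105), Samd8 (0.177) and the PI3-kinase adaptor gene Pik3ap1 (0.194), where the median over 10598 candidates was 0.717. C030046E11Rik went from 551 to 1429 in HOXA9 and from 589 to 1558 in MLL-AF9, and from 549 to 695 in NT. Nearest to Stat4 were Nudt12 (0.370), Kdsr (0.448) and Creb3l2 (0.450) against a median of 1.12. Kdsr, an enzyme gene of sphingolipid synthesis, went from 370 to 142 in MLL-AF9 and from 424 to 521 in PML-RARa. Nearest to Stat6 were Zfp263 (0.0760), Mul1 (0.0818) and Ap3b1 (0.0827) against 0.443, and nearest to Socs3 were Lrrc3 (0.230), Vav2 (0.243) and Ugt1a7c (0.260) against 0.857. Ugt1a7c shares exons with its neighbours in the Ugt1a cluster, so its reads are uncertain.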

How the data were processed

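Per the submitters' processing notes, TopHat, DESeq and the build mm9 were used, with no version. Neither the read counter nor its annotation is stated in those notes or in the labels. The TruSeq RNA v2 kit does not mark strand. Per the file headers, each deposited signal column is a normalised read count (base mean) per RefSeq transcript. The deposited ratio column divides OHT by control, the deposited log2 column is its log2, and the deposited p-value column compares 1 library with 1, unadjusted. Dividing by the lowest value of a library gave whole reads (100% of values, tolerance 0.02). The lowest entry is 1 read, held by 15.1% to 20% of transcripts, and whether it stands for 0 is not known. All 8 libraries share 1 scaling (size factors within 5e-10 of joint median-of-ratios ones), which lets values be compared between contexts.

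The main test was limma 3.58.1 (R 4.3.3), two-sided, on log2(value + 1) for transcripts averaging 20 or more, with context blocked. This scale understates ratios of low values. Alternatives were edgeR 4.0.16 and DESeq2 1.42.0 on recovered reads, other pseudocounts and filters, centred ratios, symbol sums, a variance trend and leaving out each pair. Scripts were tested on simulated data. Lengths came from GENCODE transcripts matched by RefSeq identifier, and 35 symbols turned into dates were restored. Named were all members, up to 4 called genes per pathway list with the largest change, genes a result turned on, and the 3 nearest patterns. The other tested rows of the JAK list were named as well. The members and lists were chosen with earlier results of these data known. Some pathway lists and some of the other listed genes are not reported here.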

Additional observations from a re-analysis of the deposited data

How the results depend on the processing

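Over 4 contexts limma called 1471 transcripts (46.1% of them higher) and 0 member rows. With no filter on low values it called 354 transcripts (58.5% higher), with a variance trend 2314, edgeR called 2235 (57.1% higher) and DESeq2 3130 (56.5% higher). Leaving out 1 pair gave 0 to 26 transcripts (26 without NT, 0 without any other, with 2982 to 3319 at an unadjusted p under 0.05) and 0 member rows. The member rows called were 1 with a variance trend, 1 by edgeR and 2 by DESeq2. Leaving out 1 pair moved the Stat4 mean between -1.05 (without PML-RARa) and 0.068 (without MLL-AF9) in place of -0.49, and the Socs1 mean between -0.067 (without NT) and 0.39 (without MLL-AF9) in place of 0.21. The cause was not tested. The other tested member rows kept the sign of their mean over contexts in every alternative run. At 1.5-fold the rows apart were 2 in NT (2 higher, 0 lower), 5 in HOXA9 (2 higher, 3 lower) and 4 in PML-RARa. In MLL-AF9 Stat5b NM_001113563 (21.2 in the control, 12.3 with OHT) joined those past 2-fold. The share of all transcripts was not computed at 1.5-fold, so nothing is read from these counts. With symbol sums 1 row was at least 2-fold apart in PML-RARa. The fit pairs OHT with control within each context, and the labels give no replicate number for a further block. The rows of Stat3, Stat5a, Stat5b, Socs1 and Socs2 had 1 to 81 reads, which widens their counting intervals.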
